A study of Mus musculus with 12 samples.

Results

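The genes described here are 10 members of the Notch pathway that endothelial cells use: the receptors Notch1 and Notch4, the ligands Dll4, Jag1 and Jag2, the glycosyltransferase Lfng, the DNA-binding factor Rbpj, and the effectors Hes1, Hey1 and Hey2. They were picked by gene symbol out of 23422 gene identifiers, and the values of all transcripts of a gene were added together. Each value is in FPKM, the number of fragments scaled to transcript length and to the mapped fragments of the library. RNA had been sequenced from primary endothelial cells of mouse lung, grown as monolayers, in 4 groups of 3 libraries. The first group lacked MLK2 and MLK3 (MLK2-/-MLK3-/-, double knockout, DKO) and was held at 1% oxygen for 90 min (hypoxia). The second was DKO at 21% oxygen (normoxia), the third wild type (WT) in hypoxia and the fourth WT in normoxia. Nothing in the labels says that replicate libraries are independent cultures or mice, and p-values therefore measure the spread between these libraries, which may be technical. MLK2 and MLK3 are mixed lineage kinases, upstream kinases of the JNK and p38 pathways, and are encoded by Map3k10 and Map3k11.

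Notch receptors are activated by ligands on a neighbouring cell. The bound receptor is cut by ADAM proteases and then by gamma-secretase, and the released intracellular domain joins Rbpj on DNA and turns on target genes such as the Hes and Hey repressors. Fringe enzymes such as Lfng add sugars to the receptor that favour signalling from Delta ligands over Jagged ligands. In blood vessels Dll4 and Notch1 restrain tip cell formation, and Hey1 and Hey2 are linked to arterial identity.

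The genotype and the treatment were visible in the libraries. Map3k10 averaged 0.659 ± 0.569 FPKM in DKO libraries and 18.1 ± 1.19 FPKM in WT libraries, and Map3k11 averaged 11.4 ± 0.455 FPKM in DKO libraries and 33.8 ± 1.61 FPKM in WT libraries (SD, n = 6 each). Both differed by a 2-sided exact permutation test (p = 0.00216, the smallest that 6 against 6 allows). In DKO cells Map3k10 had 1.34, 1.15 and 1.02 FPKM in hypoxia and 0.145, 0.169 and 0.131 FPKM in normoxia, and the part of either gene that was deleted is not given in the labels. Vegfa, Bnip3 and Ankrd37, known targets of the hypoxia-inducible factors, were higher in every hypoxia library than in any normoxia library of the same genotype. Estimated depth was 21300000 to 26000000 fragments per library. Of 12 endothelial markers 11 averaged at least 1 FPKM in every group, with a summed level of 3164 to 3371 FPKM per library, and Vwf was the exception. All 5 lymphatic endothelial markers also reached 1 FPKM.

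Jag1 was the most abundant member, and Hey2 was near 0. The means over all 12 libraries were 27.9 FPKM for Jag1, 17.6 for Hes1, 17.4 for Notch4 and 11.9 for Rbpj. They were 7.60 FPKM for Notch1, 4.89 for Dll4, 3.20 for Lfng, 2.02 for Hey1, 1.22 for Jag2 and 0.0182 for Hey2. The order depended on the group where neighbours lay close. In DKO hypoxia the libraries overlapped between Notch4 and Hes1, Notch1 and Dll4, Lfng and Hey1, and Hey1 and Jag2, whereas in DKO normoxia no neighbouring pair did. In WT hypoxia Notch1 overlapped Dll4, Dll4 overlapped Hey1 and Hey1 overlapped Lfng. In WT normoxia Notch4 overlapped Hes1, and Hey1 overlapped Jag2. Hey1 therefore stood beside Dll4 and Lfng in WT hypoxia but beside Jag2 in WT normoxia. The 9 members with a mean of at least 1 FPKM, all but Hey2, were tested among 11378 genes. The tests ran in limma on log2(FPKM + 1), a scale that understates the change of genes with low levels, and p was adjusted by Benjamini-Hochberg over all of them with a threshold of 0.05.

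**Figure D1:**
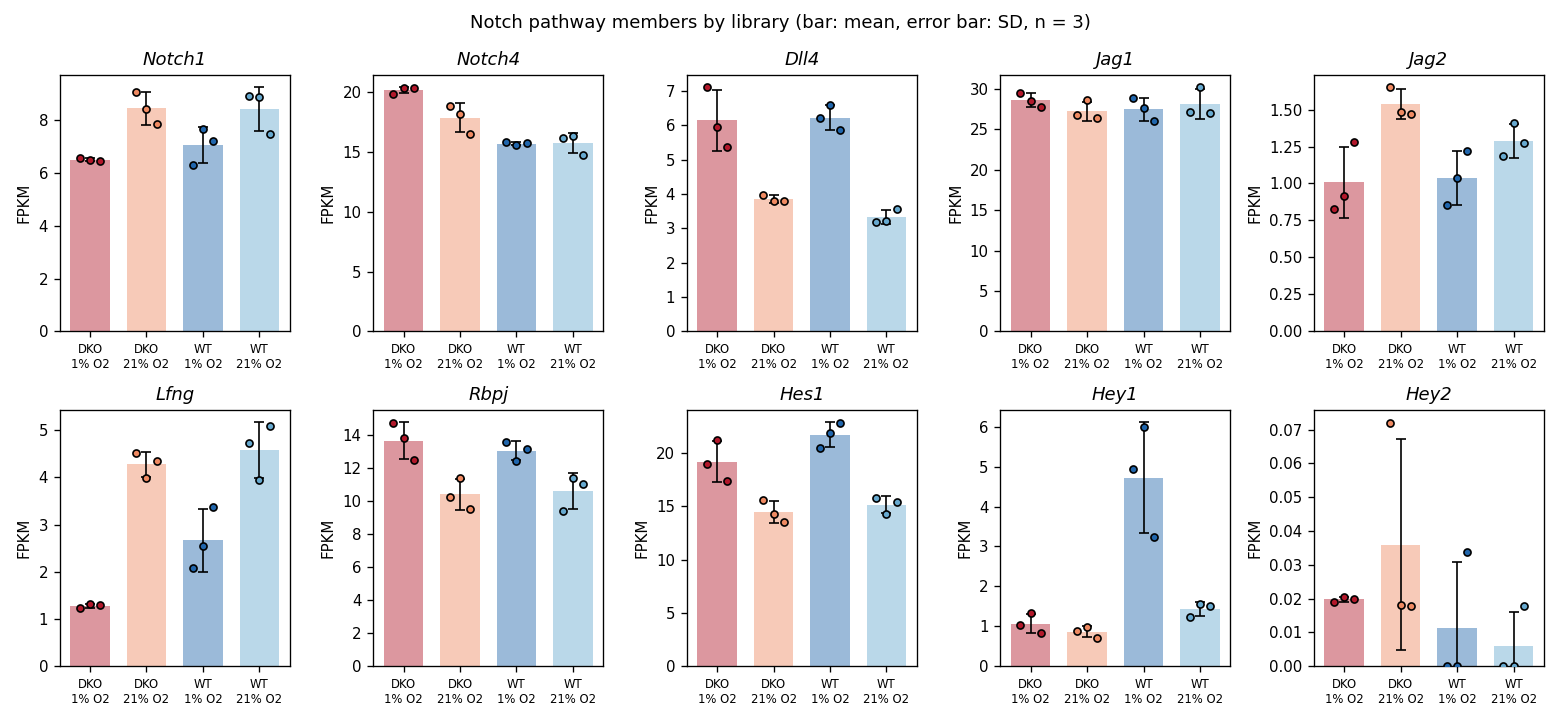
Level of each of the 10 members in FPKM (y axis, linear and starting at 0) in the 4 groups (x axis). Points are libraries, bars are means and error bars are SD (n = 3). Jag1 lies between 26.0 and 30.2 FPKM in all 12 libraries, Lfng is lowest in DKO hypoxia, and Hey1 is highest in WT hypoxia.

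Hypoxia was accompanied by a higher level of Dll4, Rbpj and Hes1 and a lower level of Lfng in both genotypes. In DKO cells Notch4 also rose, and Notch1 and Jag2 fell. In WT cells Hey1 rose. In DKO cells 4 of the 9 tested members rose and 3 fell, or 77.8%, where 39.3% of all tested genes were called (19.6% higher and 19.6% lower). In WT cells 4 rose and 1 fell, or 55.6%, where 20.8% of all tested genes were called (10.5% higher and 10.4% lower). The median log2 difference of the members was 0.15 in DKO cells and -0.00 in WT cells, against 0.01 and 0.00 over all genes tested in those comparisons.

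**Figure D2:**
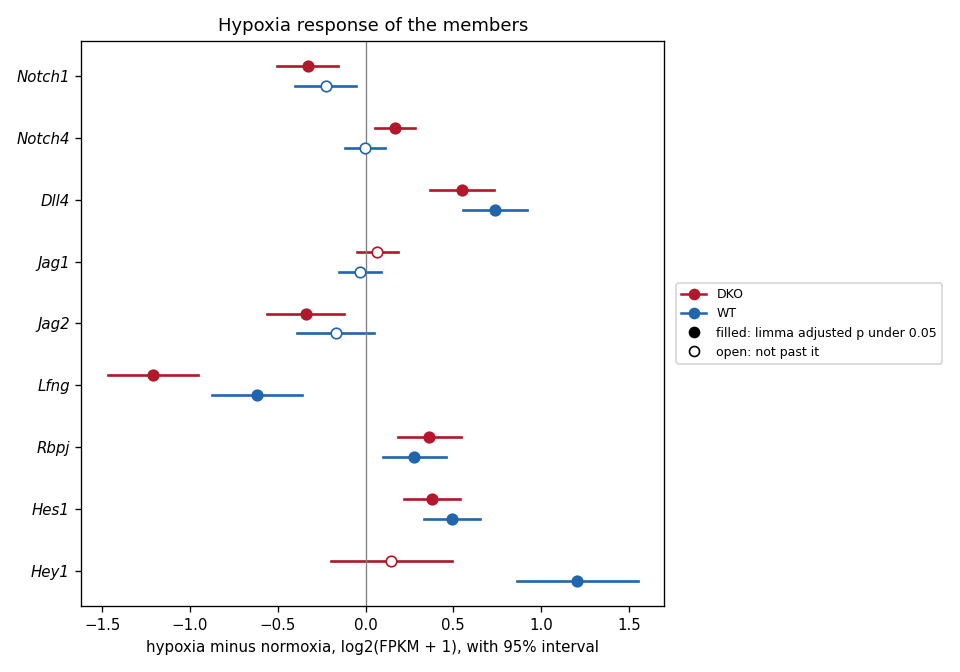
Hypoxia minus normoxia of each tested member, in log2(FPKM + 1) (x axis), in DKO and WT cells, with 95% intervals from limma (n = 3 libraries per group). Filled points passed the adjusted threshold. Lfng has the lowest point in both genotypes, at -1.21 in DKO cells and -0.62 in WT cells, and Hey1 in WT cells has the highest, at 1.21.

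Of the receptors, Notch1 (ENSMUSG00000026923, chr2:26457903-26516663, minus strand, GENCODE M21 on GRCm38) had 6.57, 6.47 and 6.45 FPKM in DKO hypoxia and 9.04, 8.43 and 7.82 FPKM in DKO normoxia. In WT cells it had 6.30, 7.66 and 7.19 FPKM in hypoxia and 8.90, 8.88 and 7.46 FPKM in normoxia. All DKO hypoxia libraries were below all DKO normoxia libraries, whereas the WT groups overlapped. Notch1 fell in DKO cells by 0.33 on the log2 scale (SE 0.08, limma adjusted p = 0.00635). The difference in WT cells was -0.23 (limma adjusted p = 0.0649), and -0.30 without library 3 of WT normoxia (limma adjusted p = 0.0281). DKO minus WT was -0.10 in hypoxia (limma adjusted p = 0.445) and 0.00 in normoxia (limma adjusted p = 0.982). Antisense genes overlap the exons of Notch1 and of Dll4 in GENCODE M21. No source used here says that strand was kept, so these values may include reads of the opposite strand.

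Notch4, the receptor largely restricted to endothelium (ENSMUSG00000015468, chr17:34564268-34588503, plus strand), had 19.9, 20.3 and 20.3 FPKM in DKO hypoxia and 18.9, 18.2 and 16.5 FPKM in DKO normoxia. In WT cells it had 15.8, 15.6 and 15.8 FPKM in hypoxia and 16.2, 16.3 and 14.8 FPKM in normoxia. DKO hypoxia was the highest group, with no library overlapping another group, and the WT groups overlapped each other. In hypoxia Notch4 was higher in DKO than in WT by 0.34 (SE 0.05, limma adjusted p = 0.00111). In normoxia the DKO libraries also lay above the WT libraries, with a difference of 0.17 that did not pass (limma adjusted p = 0.0703), although it did with array weights (limma adjusted p = 0.0198) or without library 3 of DKO normoxia (limma adjusted p = 0.0234). The rise in DKO hypoxia over DKO normoxia was 0.17 (limma adjusted p = 0.0235). That call was lost without library 2 (limma adjusted p = 0.0616) or 3 (limma adjusted p = 0.0624) of DKO hypoxia or library 3 of DKO normoxia (limma adjusted p = 0.0923). In WT cells the hypoxia difference was -0.00 (95% interval -0.12 to 0.11, limma adjusted p = 0.986).

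Among the ligands, Dll4 (ENSMUSG00000027314, chr2:119325784-119335962, plus strand), the Delta ligand of the tip cell, had 7.11, 5.96 and 5.36 FPKM in DKO hypoxia and 3.97, 3.79 and 3.79 FPKM in DKO normoxia. In WT cells it had 6.20, 6.58 and 5.86 FPKM in hypoxia and 3.19, 3.23 and 3.57 FPKM in normoxia. Every hypoxia library was above every normoxia library, in both genotypes. The mean was 1.59 times as high in DKO hypoxia as in DKO normoxia, a log2 difference of 0.55 (SE 0.08, limma adjusted p = 3.10e-04). It was 1.87 times as high in WT hypoxia as in WT normoxia, a log2 difference of 0.74 (SE 0.08, limma adjusted p = 1.38e-04). Both calls held under every alternative in which Dll4 was tested. In normoxia the DKO libraries lay above the WT libraries, by 0.16, which did not pass (limma adjusted p = 0.282). In hypoxia DKO minus WT was -0.02 (limma adjusted p = 0.901).

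Jag1 (ENSMUSG00000027276, chr2:137081456-137116644, minus strand), the abundant Jagged ligand, had 29.5, 28.5 and 27.8 FPKM in DKO hypoxia and 26.7, 28.6 and 26.4 FPKM in DKO normoxia. Its WT libraries had 28.9, 27.6 and 26.0 FPKM in hypoxia and 27.2, 30.2 and 27.0 FPKM in normoxia. All groups overlapped, and no comparison passed. The hypoxia difference was 0.07 in DKO cells (95% interval -0.05 to 0.19) and -0.03 in WT cells (95% interval -0.15 to 0.09). DKO minus WT was 0.06 in hypoxia (95% interval -0.06 to 0.17) and -0.04 in normoxia (95% interval -0.16 to 0.07).

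Jag2 (ENSMUSG00000002799, chr12:112907819-112929776, minus strand), the second Jagged ligand, had the lowest mean FPKM over the 12 libraries of the tested members, with an estimated 93 to 192 fragments per library. It had 0.829, 0.914 and 1.28 FPKM in DKO hypoxia and 1.65, 1.48 and 1.47 FPKM in DKO normoxia. Jag2 had, in WT cells, 0.854, 1.04 and 1.22 FPKM in hypoxia and 1.18, 1.41 and 1.27 FPKM in normoxia. The DKO groups were apart and the WT groups overlapped. Jag2 fell in DKO cells by 0.34 on the log2 scale (limma adjusted p = 0.0182). The call was lost with quantile normalization (limma adjusted p = 0.0589), without library 1 (limma adjusted p = 0.0726) or 2 (limma adjusted p = 0.0593) of DKO hypoxia, and without library 1 of DKO normoxia (limma adjusted p = 0.0589). The WT difference was -0.17 (limma adjusted p = 0.259). In normoxia all DKO libraries were above all WT libraries, by 0.15, which did not pass (limma adjusted p = 0.442), and in hypoxia DKO minus WT was -0.02 (limma adjusted p = 0.908).

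Lfng (ENSMUSG00000029570, chr5:140607320-140615545, plus strand), the lunatic fringe glycosyltransferase, had 1.23, 1.31 and 1.29 FPKM in DKO hypoxia and 4.51, 3.98 and 4.34 FPKM in DKO normoxia. The WT libraries had 2.07, 2.54 and 3.38 FPKM in hypoxia and 4.72, 3.94 and 5.10 FPKM in normoxia. The hypoxia libraries were below the normoxia libraries of their genotype, the 3 DKO hypoxia libraries were the lowest of all 12, and the normoxia groups overlapped. The mean in DKO hypoxia was 29.9% of that in DKO normoxia, a log2 difference of -1.21 (SE 0.12, limma adjusted p = 1.56e-05). The mean in WT hypoxia was 58.1% of that in WT normoxia, a log2 difference of -0.62 (SE 0.12, limma adjusted p = 0.00386). In hypoxia the DKO mean was 48.0% of the WT mean, a log2 difference of -0.67 (SE 0.12, limma adjusted p = 0.00260), and in normoxia DKO minus WT was -0.08 (limma adjusted p = 0.763). The response in DKO cells minus that in WT cells was -0.59 (95% interval -0.96 to -0.23). This did not pass (limma adjusted p = 0.120, and 0.0704 to 0.242 over its alternatives). Library 3 of WT hypoxia was the highest of its group, and without it the WT response was -0.75 and DKO minus WT in hypoxia -0.53 (limma adjusted p = 6.47e-04 and 0.00665). An estimated 57 to 254 fragments per library lay behind these values.

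The sequences before the start sites of 3 members that moved in both genotypes are shown: that of Lfng, which fell, and those of Dll4 and Rbpj, which rose. They are the 250 bases upstream of the RefSeq start (GRCm38.p6, plus strand), and capitals mark matches to 5 motifs on either strand. The motifs were TGGGAA, a core of the Rbpj site, ACGTG and GCGTG, cores of the hypoxia response element, CACGTG, an E-box of the kind Hey proteins bind, and TGANTCA, the AP-1 site of Jun and Fos.
Lfng, chr5:140607091-140607340: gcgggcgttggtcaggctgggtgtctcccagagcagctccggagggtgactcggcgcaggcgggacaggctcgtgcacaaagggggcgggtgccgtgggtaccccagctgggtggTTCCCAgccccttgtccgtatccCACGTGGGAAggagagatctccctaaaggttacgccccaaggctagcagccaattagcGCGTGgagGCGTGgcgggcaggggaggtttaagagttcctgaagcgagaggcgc
Dll4, chr2:119325534-119325783: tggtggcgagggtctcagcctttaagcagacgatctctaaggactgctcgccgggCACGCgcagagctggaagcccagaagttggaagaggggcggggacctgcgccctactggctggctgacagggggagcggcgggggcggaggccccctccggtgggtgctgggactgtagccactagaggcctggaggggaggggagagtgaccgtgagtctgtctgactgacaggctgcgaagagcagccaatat
Rbpj, chr5:53590096-53590345: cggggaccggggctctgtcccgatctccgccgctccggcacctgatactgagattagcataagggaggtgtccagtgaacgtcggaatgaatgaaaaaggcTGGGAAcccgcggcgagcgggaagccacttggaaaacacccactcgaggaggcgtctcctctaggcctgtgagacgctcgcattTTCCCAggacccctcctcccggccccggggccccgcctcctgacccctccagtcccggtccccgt
The window of Lfng held TGGGAA at -135 to -130 on the minus strand and at -108 to -103 on the plus strand, counted from -1 at the base before the start. It held CACGTG at -112 to -107, which contains ACGTG on both strands and overlaps the second TGGGAA, and GCGTG at -54 to -50 and at -46 to -42. The window of Dll4 held GCGTG on the minus strand at -195 to -191. The window of Rbpj held TGGGAA at -149 to -144 on the plus strand and at -65 to -60 on the minus strand. A second RefSeq start of Rbpj held TGGGAA at -205 to -200 and ACGTG at -111 to -107, both on the minus strand. Its window overlaps the first, and this TGGGAA is the same site as that at -65 to -60 of the first. RefSeq windows were matched for 8 of the 10 members, the exceptions being Hes1 and Hey1, and numbered 9 because Rbpj has a pair. TGGGAA was found in 4 of the 9 windows, or 3 of the 8 members (Lfng, Rbpj and Hey2), since the Rbpj windows share 1 site. It was found in 21.6% of all 32841 RefSeq windows of the same length. GCGTG was found in 6 of the 9 (all but those of Notch1 and Rbpj) and in 28.2% of all windows. ACGTG was found in 2 of the 9 (Lfng and the second of Rbpj) and in 16.6% of all windows, CACGTG in 1 of the 9 (Lfng) and in 6.02%, and TGANTCA in 0 of the 9 and in 6.75%. These matches describe the letters and say nothing of binding.

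Rbpj (ENSMUSG00000039191, chr5:53466152-53657362, plus strand), the DNA-binding factor through which all Notch receptors act, had 14.7, 13.8 and 12.5 FPKM in DKO hypoxia and 10.2, 11.4 and 9.54 FPKM in DKO normoxia. Rbpj had, in WT cells, 13.6, 12.4 and 13.1 FPKM in hypoxia and 9.37, 11.4 and 11.0 FPKM in normoxia. All hypoxia libraries were above all normoxia libraries, in both genotypes. It rose by 0.36 in DKO cells (SE 0.08, limma adjusted p = 0.00444). The rise of 0.28 in WT cells (limma adjusted p = 0.0344) was lost with no filter on low values (limma adjusted p = 0.0719) and with the most abundant transcript alone (limma adjusted p = 0.0665). It was also lost without library 1, 2 or 3 of WT hypoxia and without library 1 or 3 of WT normoxia (limma adjusted p = 0.113, 0.0553, 0.0692, 0.122 and 0.0543). DKO minus WT was 0.06 in hypoxia (limma adjusted p = 0.674) and -0.03 in normoxia (limma adjusted p = 0.901).

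Hes1 (ENSMUSG00000022528, chr16:30064384-30067796, plus strand), a repressor and direct Notch target, had 18.9, 21.2 and 17.4 FPKM in DKO hypoxia and 15.6, 14.3 and 13.6 FPKM in DKO normoxia. The WT cells had 20.5, 21.9 and 22.9 FPKM in hypoxia and 15.8, 14.3 and 15.4 FPKM in normoxia. The hypoxia libraries were above the normoxia libraries in both genotypes, while DKO and WT overlapped at both oxygen levels. It rose by 0.38 in DKO cells (SE 0.07, limma adjusted p = 0.00172) and by 0.49 in WT cells (SE 0.07, limma adjusted p = 9.32e-04), and both calls held under every alternative run. In hypoxia DKO minus WT was -0.17 (limma adjusted p = 0.136), and -0.25 without library 2 of DKO hypoxia (limma adjusted p = 0.0472). In normoxia it was -0.06 (limma adjusted p = 0.696).

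Hey1 (ENSMUSG00000040289, chr3:8663359-8667256, minus strand), a repressor of the Hey family, varied most among the members. It had 1.04, 1.33 and 0.843 FPKM in DKO hypoxia and 0.894, 0.978 and 0.719 FPKM in DKO normoxia. Its level in WT cells was 4.94, 6.00 and 3.23 FPKM in hypoxia and 1.24, 1.56 and 1.51 FPKM in normoxia. The DKO groups overlapped, and the WT hypoxia libraries were above every other library. At each oxygen level all DKO libraries were below all WT libraries. The mean was 3.30 times as high in WT hypoxia as in WT normoxia, a log2 difference of 1.21 (95% interval 0.86 to 1.55, limma adjusted p = 4.15e-04). In DKO cells the difference was 0.15 (95% interval -0.20 to 0.49, limma adjusted p = 0.493). In hypoxia the DKO mean was 22.6% of the WT mean, a log2 difference of -1.44 (SE 0.16, limma adjusted p = 1.16e-04). In normoxia it was 60.3% of the WT mean, a difference of -0.38 that did not pass (limma adjusted p = 0.179). Library 3 of WT hypoxia was the lowest of its group. Without it the WT response of Hey1 was 1.41 and DKO minus WT in hypoxia was -1.65 (limma adjusted p = 3.10e-05 and 2.32e-05). Over all alternatives the WT response ran from 1.05 to 1.62 (limma adjusted p up to 0.00504). DKO minus WT in hypoxia ran from -2.02 to -1.28 (limma adjusted p up to 0.00343). An estimated 38 to 293 fragments per library lay behind the values of Hey1.

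The response of Hey1 in DKO cells minus that in WT cells was -1.06 (SE 0.22, 95% interval -1.55 to -0.57). This did not pass (limma adjusted p = 0.0780, and 0.0297 to 0.162 over its alternatives). It passed with array weights, at -1.19 (limma adjusted p = 0.0338), and without library 3 of WT hypoxia, at -1.26 (limma adjusted p = 0.0297). Of the 9 tested members 0 were called for a difference of the hypoxia responses, where 0.193% of all tested genes, 22 genes, were called in limma. At an unadjusted p under 0.05 the members numbered 3, namely Notch4 (0.17, limma adjusted p = 0.290), Lfng and Hey1. The differing calls of Notch1, Notch4, Jag2 and Hey1 between the genotypes are therefore not shown by the main fit to be different responses.

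Hey2 (ENSMUSG00000019789, chr10:30832359-30842801, minus strand), the other arterial Hey repressor, was at the limit of detection. It had 0.0189, 0.0205 and 0.0199 FPKM in DKO hypoxia and 0.0719, 0.0181 and 0.0179 FPKM in DKO normoxia. The WT values were 0, 0 and 0.0337 FPKM in hypoxia and 0, 0 and 0.0178 FPKM in normoxia. These values correspond to an estimated 0 to 4 fragments per library. For a count of 0 the upper limit at 95% confidence is 3 fragments, which would give 0.0507 to 0.0619 FPKM. Hey2 was below the filter and was not tested for a difference, and no fold change is given.

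Between the genotypes, the members differed in hypoxia for Notch4, which was higher in DKO cells, and for Lfng and Hey1, which were lower. These 3 of 9 tested members, or 33.3%, stood where 16.1% of all tested genes were called (7.68% higher and 8.42% lower). The median difference of the members was -0.02, against -0.00 over all genes tested. In normoxia 0 of the 9 were called in limma, where 8.16% of all tested genes were called (3.84% higher and 4.32% lower). At this oxygen level 2 members had an unadjusted p under 0.05, Notch4 and Hey1. The libraries of DKO and WT did not overlap in normoxia for Notch4, Dll4 and Jag2 (higher in DKO) and Hey1 (lower in DKO), but none of these passed. The share of all tested genes whose libraries were likewise apart was not computed, so this separation is not read as a result. The comparisons of genotypes and of oxygen levels share libraries, so their values are not independent.

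**Figure D3:**
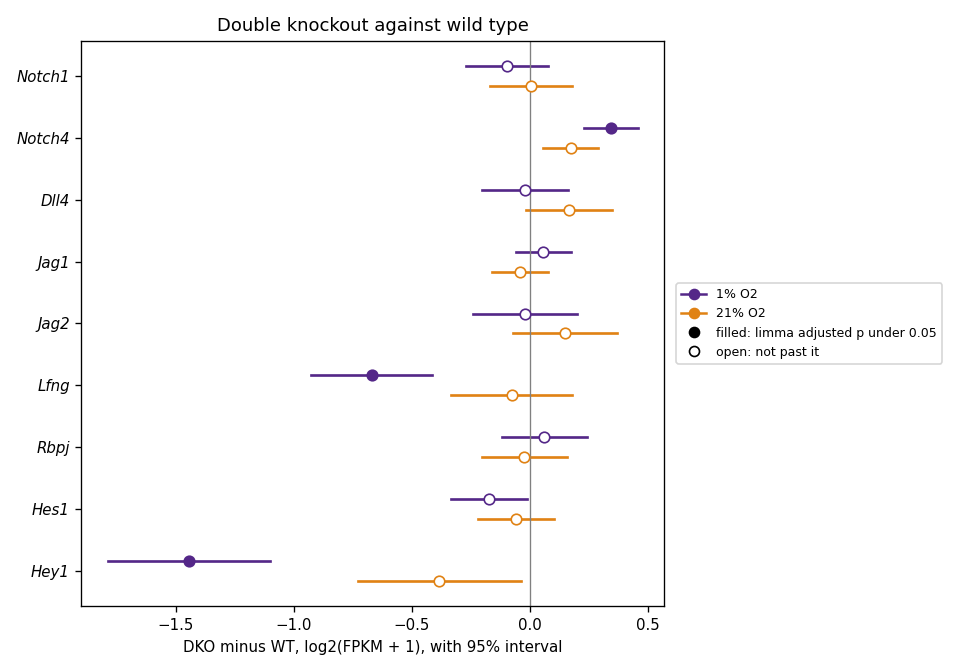
DKO minus WT of each tested member, in log2(FPKM + 1) (x axis), at 1% and 21% oxygen, with 95% intervals from limma (n = 3 libraries per group). Filled points passed the adjusted threshold. At 1% oxygen Hey1 lies at -1.44, Lfng at -0.67 and Notch4 at 0.34, and no point at 21% oxygen is filled.

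Markers of endothelial and of other cells moved with genotype as well, and their part in the results was not tested. Of 11 tested endothelial markers 4 were higher and 2 lower in DKO than in WT in hypoxia, where 16.1% of all tested genes were called. In normoxia 2 were higher and 0 lower, where 8.16% of all tested genes were called. The 5 lymphatic endothelial markers summed to 405 to 447 FPKM in DKO hypoxia and 374 to 433 FPKM in DKO normoxia, and to 521 to 597 FPKM in WT hypoxia and 484 to 496 FPKM in WT normoxia, and none was at 0. Lyve1 made up most of the sum, at 265 FPKM in DKO hypoxia against 390 FPKM in WT hypoxia. In the same groups Flt4 averaged 77.5 FPKM against 81.9 FPKM, and Ccl21a 1.46 FPKM against 3.56 FPKM. Lyve1 was lower in DKO than in WT both in hypoxia (-0.56, limma adjusted p = 2.62e-04) and in normoxia (-0.40, limma adjusted p = 0.00341). Pdpn, which encodes podoplanin, was higher in DKO than in WT in normoxia (0.24, limma adjusted p = 0.00700), at 60.8 FPKM against 51.2 FPKM, and differed by 0.00 in hypoxia. Prox1, the lymphatic identity factor, was lower in DKO than in WT in hypoxia (-0.34, limma adjusted p = 0.0195), a call lost without library 3 of DKO hypoxia (limma adjusted p = 0.0764) or library 2 of WT hypoxia (limma adjusted p = 0.0772). It rose in hypoxia in DKO (0.43, limma adjusted p = 0.00214) and WT cells (0.52, limma adjusted p = 0.00182). The 7 macrophage and leukocyte markers summed to 81.9 to 91.7 FPKM in DKO hypoxia and 87.2 to 98.2 FPKM in DKO normoxia, and to 50.2 to 50.5 FPKM in WT hypoxia and 38.7 to 49.3 FPKM in WT normoxia. Of these 7, 3 averaged at least 1 FPKM (Cd14, Cd68 and Lyz2), and Ptprc, Csf1r, Adgre1 and Itgam did not. Most of the difference in the sum lay in Lyz2, the lysozyme gene, which averaged 59.6 FPKM in DKO hypoxia against 24.5 FPKM in WT hypoxia and was the 1 of the 3 called there (1.25, limma adjusted p = 3.42e-05). Cd14 averaged 23.9 FPKM in DKO hypoxia against 22.3 FPKM in WT hypoxia, and Cd68 averaged 3.38 FPKM against 2.79 FPKM in the same groups. In normoxia Lyz2 (1.51, limma adjusted p = 9.99e-06) and Cd14 (0.36, limma adjusted p = 0.00131) were higher in DKO than in WT. The 12 markers of smooth muscle, pericytes and fibroblasts summed to 31.3 to 37.3 FPKM in DKO hypoxia and 29.7 to 31.2 FPKM in DKO normoxia, and to 36.7 to 47.8 FPKM in WT hypoxia and 29.4 to 38.6 FPKM in WT normoxia. Of these 12, 3 averaged at least 1 FPKM (Acta2, Dcn and Tagln), and Tagln made up most of the sum. Acta2, the smooth muscle actin gene, was higher in DKO than in WT in hypoxia (0.63, limma adjusted p = 0.00614), at 5.75 FPKM against 3.37 FPKM, and in normoxia (0.73, limma adjusted p = 0.00388). Dcn, the decorin gene, was also higher in DKO in hypoxia (0.77, limma adjusted p = 1.54e-04), at 3.01 FPKM against 1.35 FPKM, and in normoxia (0.68, limma adjusted p = 5.11e-04). Tagln was lower in DKO than in WT in hypoxia (-0.56, limma adjusted p = 0.00529), and its difference in normoxia was -0.36 (limma adjusted p = 0.0682). The 7 epithelial markers summed to 25.2 to 31.5 FPKM per library, nearly all of it Krt18, and the 3 mesothelial markers were near 0. In bulk RNA fewer cells of a type and less RNA per cell cannot be told apart.

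Another 65 genes of the pathway, in 7 lists, gave 50 tested genes. In hypoxia 11 rose and 7 fell in DKO cells (36% of those tested, where 39.3% of all genes were called), and 6 rose and 3 fell in WT cells (18%, where 20.8% of all genes were called). Between genotypes 6 were higher and 9 lower in DKO hypoxia than in WT hypoxia (30%, where 16.1% of all genes were called). In normoxia 4 were higher and 1 was lower in DKO cells (10%, where 8.16% of all genes were called). For the difference of responses limma called 0 of the 50 (0.193% of all genes were called). The most abundant tested gene of each list differed there by -0.20 for Notch2, 0.05 for Poglut1, 0.04 for Mib1, 0.13 for Adam10, -0.02 for Snw1, -0.16 for Egfl7 and 0.24 for Cxcr4.

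**Figure D4:**
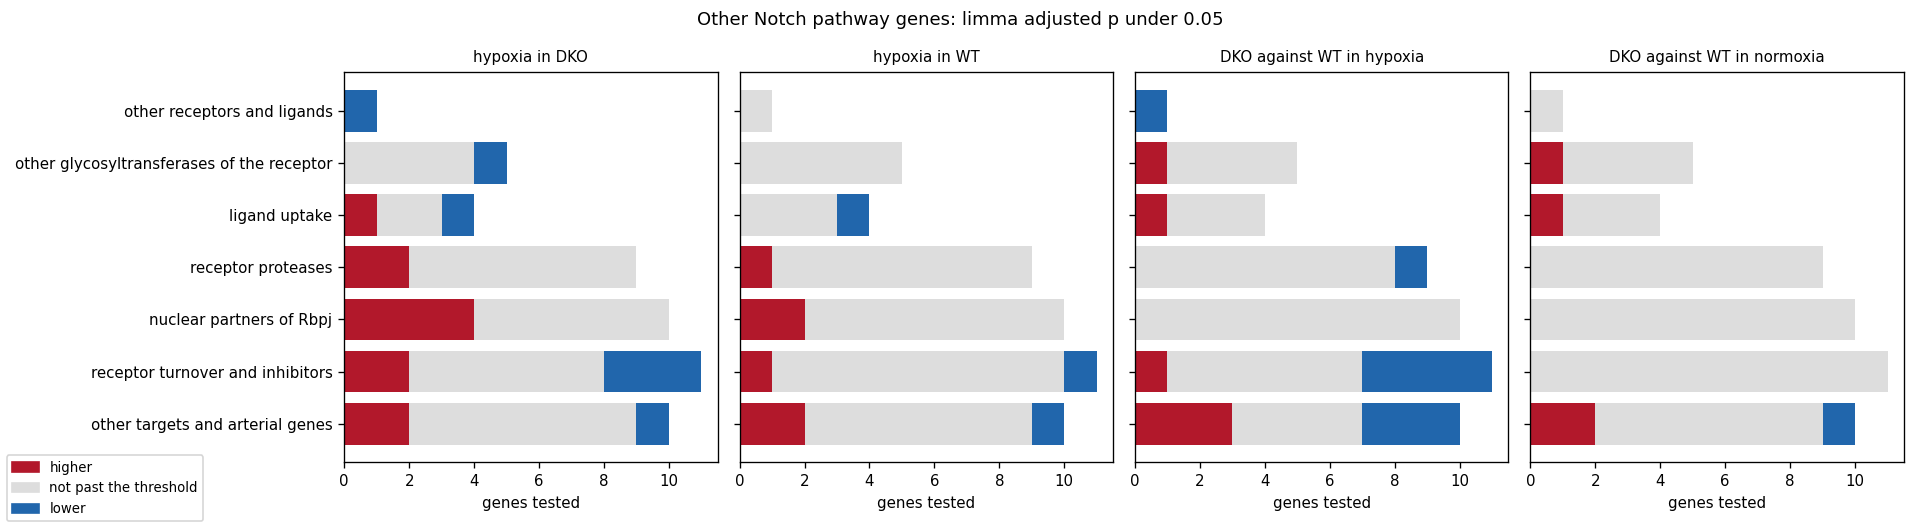
Number of tested genes (x axis) in each of 7 lists of other Notch pathway genes (y axis) that were higher, not past the threshold or lower, by comparison. The nuclear partners of Rbpj have 4 genes higher and 0 lower in DKO hypoxia against DKO normoxia, where 19.6% of all tested genes were higher and 19.6% lower. The receptor turnover list has 1 higher and 4 lower in DKO hypoxia against WT hypoxia, where 7.68% of all tested genes were higher and 8.42% lower.

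Of the 6 other receptors and ligands, Notch2 was the 1 tested, and Notch3, Dll1, Dll3, Dlk1 and Dlk2 averaged under 1 FPKM. Notch2 averaged 4.21 ± 0.0653 FPKM in DKO hypoxia, 5.85 ± 0.355 in DKO normoxia, 6.00 ± 0.492 in WT hypoxia and 7.05 ± 0.710 in WT normoxia (SD, n = 3). It fell in DKO hypoxia relative to DKO normoxia (-0.39, limma adjusted p = 0.00141) and was lower in DKO than in WT in hypoxia (-0.43, limma adjusted p = 0.00260). In WT cells its hypoxia difference was -0.20 (limma adjusted p = 0.0791), and in normoxia DKO minus WT was -0.23 (limma adjusted p = 0.0868). Notch1 and Notch2 thus both fell in DKO hypoxia while Notch4 was higher there.

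Of the 6 other glycosyltransferases 5 were tested. Mfng, the manic fringe paralog of Lfng, averaged 24.1 ± 1.13 FPKM in DKO hypoxia, 22.8 ± 1.30 in DKO normoxia, 16.9 ± 0.653 in WT hypoxia and 15.3 ± 0.901 in WT normoxia (SD, n = 3). It was higher in DKO than in WT in hypoxia (0.49, limma adjusted p = 1.73e-04) and in normoxia (0.55, limma adjusted p = 1.21e-04), so Lfng and Mfng lay on opposite sides of WT in hypoxia. Neither hypoxia comparison of Mfng passed. Pofut1, which adds the fucose that fringe enzymes extend, fell in DKO hypoxia (-0.11, limma adjusted p = 0.0438). That call was lost in 11 alternatives, among them the omission of any DKO library (limma adjusted p from 0.0501 to 0.124). In WT cells none of the list passed, and Poglut1, its most abundant gene, had a hypoxia difference of -0.02 (limma adjusted p = 0.762).

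Of the 5 genes for uptake of bound ligand 4 were tested. Mib2, a ubiquitin ligase of ligands, fell in hypoxia in DKO cells (-0.58, limma adjusted p = 7.96e-05) and in WT cells (-0.38, limma adjusted p = 0.00362). Its relative Mib1 rose in DKO hypoxia by 0.11 (limma adjusted p = 0.0231). The call of Mib1 was lost with quantile normalization (limma adjusted p = 0.226), with its most abundant transcript alone (limma adjusted p = 0.425), without library 1 (limma adjusted p = 0.0724) or 2 (limma adjusted p = 0.0807) of DKO hypoxia and without library 1 of DKO normoxia (limma adjusted p = 0.0727). Neurl3, of the neuralized family, was higher in DKO than in WT in hypoxia (0.55, limma adjusted p = 3.82e-04) and in normoxia (0.57, limma adjusted p = 4.40e-04).

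Of 10 genes for receptor cleavage 9 were tested. Adam10, the protease of the first cut, rose in DKO hypoxia (0.29, limma adjusted p = 0.00759), with 73.8 ± 4.88 FPKM there against 60.4 ± 4.21 FPKM in DKO normoxia (SD, n = 3). Ncstn, a gamma-secretase subunit, rose in DKO hypoxia (0.18, limma adjusted p = 0.0290). The call of Ncstn was lost without library 1 or 3 of DKO hypoxia, without library 2 or 3 of DKO normoxia, with no filter and with quantile normalization (limma adjusted p from 0.0534 to 0.111). Psen2, a catalytic subunit of gamma-secretase, was lower in DKO than in WT in hypoxia (-0.34, limma adjusted p = 0.00406). It rose in WT hypoxia (0.26, limma adjusted p = 0.0151), a call lost without library 1 of WT hypoxia (limma adjusted p = 0.0645) or library 2 (limma adjusted p = 0.0525) or 3 (limma adjusted p = 0.0583) of WT normoxia. In normoxia none of the list was called in limma between genotypes, and Adam10, its most abundant gene, differed by -0.12.

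All 10 nuclear partners of Rbpj were tested, and 4 rose in DKO hypoxia and 2 in WT hypoxia, with none lower in either and none called between genotypes. Of all tested genes 39.3% were called for hypoxia in DKO cells (19.6% higher) and 20.8% in WT cells (10.5% higher). The share of the list that was called was thus close to that of all genes. Spen, a corepressor, rose in DKO hypoxia (0.41, limma adjusted p = 0.00391), a call lost with its most abundant transcript alone (limma adjusted p = 0.316). Kdm5a, a histone demethylase, rose in DKO cells (0.27, limma adjusted p = 0.0123; 0.0503 without library 1 of DKO hypoxia). Its rise in WT cells (0.26, limma adjusted p = 0.0295) was lost in 7 alternatives, among them the omission of library 1 or 2 of WT hypoxia or of any WT normoxia library (limma adjusted p from 0.0580 to 0.115). Hdac1, a histone deacetylase, rose in DKO cells (0.23, limma adjusted p = 0.0199), which was lost with quantile normalization, without library 2 or 3 of DKO hypoxia and without library 2 or 3 of DKO normoxia (limma adjusted p from 0.0512 to 0.0713). Maml3, a mastermind coactivator, rose in DKO cells (0.24, limma adjusted p = 0.0269), a call lost without library 2 or 3 of DKO hypoxia and without library 2 or 3 of DKO normoxia (limma adjusted p from 0.0586 to 0.0762). It also rose in WT cells (0.24, limma adjusted p = 0.0498), a call lost in 8 alternatives, among them the omission of any WT hypoxia library or of library 2 or 3 of WT normoxia (limma adjusted p from 0.0573 to 0.172). Between genotypes none passed in limma, and Snw1, the most abundant of the list, differed by 0.02 in hypoxia and 0.04 in normoxia.

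Of 12 genes for receptor turnover and inhibition 11 were tested. Tspan14, a tetraspanin that aids Adam10, averaged 44.6 ± 0.240 FPKM in DKO hypoxia, 78.7 ± 3.28 in DKO normoxia, 54.6 ± 2.48 in WT hypoxia and 75.6 ± 3.51 in WT normoxia (SD, n = 3). It fell in hypoxia in DKO cells (-0.80, limma adjusted p = 3.10e-07) and in WT cells (-0.46, limma adjusted p = 4.54e-05), and was lower in DKO than in WT in hypoxia (-0.29, limma adjusted p = 0.00133). Nrarp, a feedback inhibitor and Notch target, fell in DKO hypoxia (-0.60, limma adjusted p = 7.98e-05). Itch, a ubiquitin ligase of the receptor, rose in DKO hypoxia (0.25, limma adjusted p = 4.95e-04) and in WT hypoxia (0.17, limma adjusted p = 0.0130), the second call being lost without library 1 of WT hypoxia (limma adjusted p = 0.0604) or of WT normoxia (limma adjusted p = 0.0527). Dtx1, a deltex regulator, was lower in DKO than in WT in hypoxia (-1.16, limma adjusted p = 6.69e-04), at 0.393 ± 0.0617 FPKM against 2.16 ± 0.624 FPKM (SD, n = 3). Fbxw7, which marks the intracellular domain for degradation, was higher there (0.26, limma adjusted p = 0.00636), a call lost with its most abundant transcript alone (limma adjusted p = 0.256). In normoxia none of the list was called between genotypes, and Egfl7, its most abundant gene, differed by 0.08.

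Of 16 other targets and arterial genes 10 were tested, and Heyl, Hes2, Hes5, Hes7, Gja5 and Dach1 averaged under 1 FPKM. Cxcr4, a chemokine receptor of tip and arterial cells, averaged 284 ± 6.77 FPKM in DKO hypoxia, 207 ± 7.53 in DKO normoxia, 192 ± 12.6 in WT hypoxia and 165 ± 5.84 in WT normoxia (SD, n = 3). It rose in hypoxia in DKO (0.45, limma adjusted p = 2.96e-05) and WT cells (0.22, limma adjusted p = 0.00887), and was higher in DKO than in WT in hypoxia (0.57, limma adjusted p = 1.95e-05) and in normoxia (0.33, limma adjusted p = 0.00121). Gja4, the arterial connexin 37 gene, averaged 0.871 ± 0.0595 FPKM in DKO hypoxia, 0.957 ± 0.168 in DKO normoxia, 1.58 ± 0.277 in WT hypoxia and 0.652 ± 0.220 in WT normoxia (SD, n = 3). WT hypoxia was the only group in which Gja4 averaged 1 FPKM or more. Gja4 thus passed the filter only through that group, so its calls with that group are not independent of the filter. It rose in WT hypoxia (0.65, limma adjusted p = 0.00298). It was lower in DKO than in WT in hypoxia (-0.46, limma adjusted p = 0.0204), a call lost without library 3 of DKO hypoxia (limma adjusted p = 0.0662) or library 2 (limma adjusted p = 0.0719) or 3 (limma adjusted p = 0.0730) of WT hypoxia. Nrp1, a semaphorin and VEGF coreceptor, rose in DKO hypoxia (0.26, limma adjusted p = 0.00858). It was also higher in DKO than in WT in hypoxia (0.26, limma adjusted p = 0.0213). That call was lost without library 1 or 2 of DKO hypoxia or library 1 or 3 of WT hypoxia (limma adjusted p from 0.0582 to 0.0739).

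Hes6, a Hes family member, fell in DKO hypoxia (-0.52, limma adjusted p = 1.78e-04). Its fall in WT hypoxia (-0.26, limma adjusted p = 0.0235) was lost without library 1 or 2 of WT hypoxia, without library 1 or 3 of WT normoxia, and in 2 other alternatives (limma adjusted p from 0.0511 to 0.0994). Hes6 was higher in DKO than in WT in normoxia (0.26, limma adjusted p = 0.0441), which was lost without any of the 6 normoxia libraries and in 3 other alternatives (limma adjusted p from 0.0515 to 0.136). Bmx, an arterial kinase, was lower in DKO than in WT in hypoxia (-0.37, limma adjusted p = 0.0115; 0.0501 without library 2 of WT hypoxia). It was also lower in normoxia (-0.34, limma adjusted p = 0.0272), a call lost without any of the 6 normoxia libraries (limma adjusted p from 0.0571 to 0.0796). The arterial factor Sox17, the venous factor Nr2f2 and the genotype difference of Nrp1 were named after their values were seen. Sox17 was higher in DKO than in WT in hypoxia (0.55, limma adjusted p = 0.0360), lost without library 2 or 3 of DKO hypoxia, without any WT hypoxia library and in 2 other alternatives (limma adjusted p from 0.0590 to 0.121). Nr2f2 was lower there (-0.24, limma adjusted p = 0.0258), lost without library 2 or 3 of DKO hypoxia, without library 1 or 2 of WT hypoxia and in 2 other alternatives (limma adjusted p from 0.0503 to 0.291).

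For the 3 members with the widest range of group means, Hey1, Lfng and Dll4, the genes with the most similar level over the 12 libraries were sought by the mean absolute difference of centred log2(FPKM + 1) values. For Hey1 these were Ednrb, the endothelin B receptor gene (0.153), Rassf10 (0.202) and Nts, the neurotensin gene (0.227). Ednrb averaged 12.7 FPKM in DKO hypoxia, 8.98 in DKO normoxia, 29.2 in WT hypoxia and 15.0 in WT normoxia, and Nts averaged 18.5, 14.7, 46.4 and 28.8 FPKM in the same groups. Both were highest in WT hypoxia, as Hey1 was, and lowest in DKO normoxia. For Lfng they were Lysmd4 (0.0846), Zfp760 (0.0930) and Klhl36 (0.117), and for Dll4 they were Cdkn1b, a cell cycle inhibitor gene (0.0756), Map2k1, the MEK1 gene (0.0770), and Rassf1 (0.0808). The closest match of Hey1 was farther from it than the closest matches of Lfng and Dll4 were from theirs. These likenesses describe 12 libraries that share their 4 groups. The genes were picked for their likeness, so a shared order of the groups is not a separate result.

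**Figure D5:**
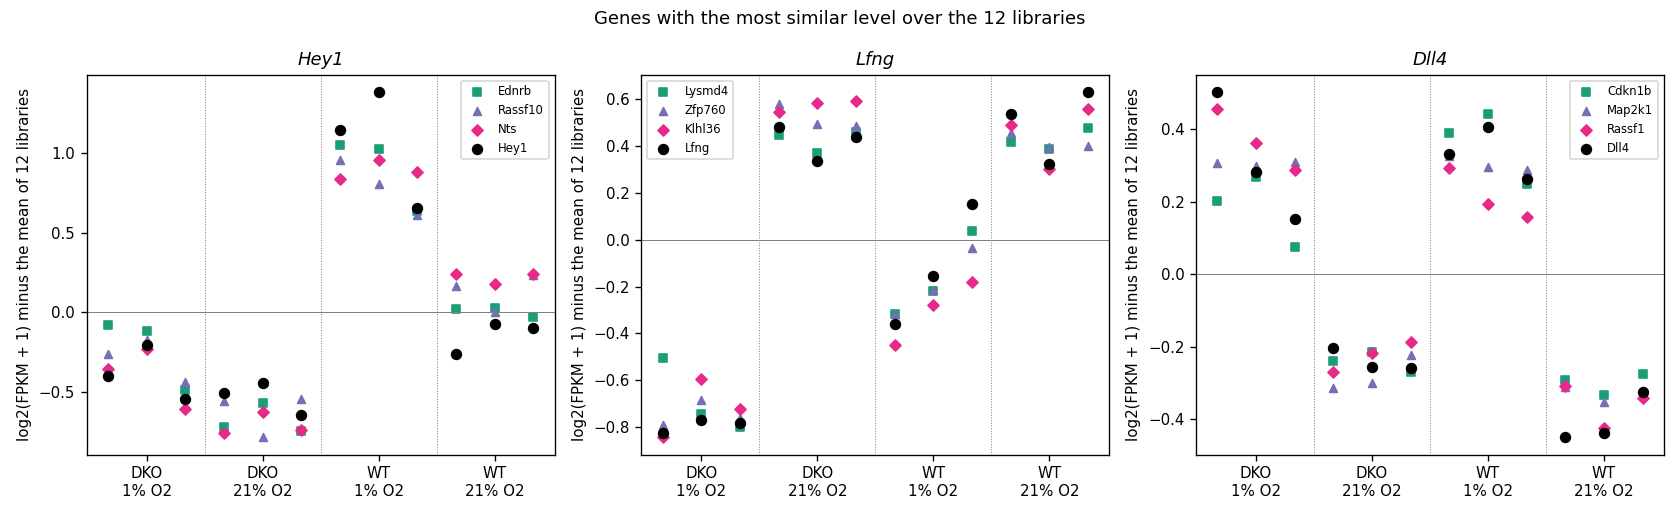
Level of Hey1, Lfng and Dll4 and of the 3 genes most like each, as log2(FPKM + 1) minus the gene's mean over the 12 libraries (y axis), by library within group (x axis). Hey1 and its 3 most similar genes are highest in the WT hypoxia libraries, and Lfng and its matches are lowest in the DKO hypoxia libraries. The genes were picked for this likeness.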

How the data were processed

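RNA from 12 libraries was extracted and prepared with NEBNext Ultra, per the labels' protocols, and TopHat2 was the aligner that the submitters' processing notes name. The authors deposited a table of 52655 transcripts in FPKM. Its build, annotation and quantification tool and the aligner's version are not given in the sources used.

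Transcript values were summed per gene. Genes averaging 1 FPKM or more (11378) were tested on log2(FPKM + 1). A fit with 1 coefficient per group over all 12 libraries (8 residual degrees of freedom, variance trend) was made in limma 3.58.1 under R 4.3.3, with a Benjamini-Hochberg threshold of 0.05 in each of 5 comparisons. The steps were tested on simulated data. FPKM carries no counts, so depth was estimated from the steps of low values, of which 89.7 to 91.5% came within 0.1 of a whole fragment. The floor given for Hey2 rests on this depth and covers counting error only. The 95% intervals come from limma and rest on the spread between libraries. Positions came from GENCODE M21, which holds 95.2% of the transcript identifiers, and windows from RefSeq. In GENCODE M21 the exons of Notch1 and Dll4 overlap antisense genes. No source used here says that strand was kept, so whether those reads were told apart is not known.

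The members and lists were chosen with earlier results of these data known. Named were all members, the 2 targeted genes, 3 hypoxia genes, from each pathway list up to 3 genes per comparison with the smallest p past the threshold (or the most abundant gene where none passed), and the 3 genes most like each of the 3 widest-ranging members, passing over unnamed gene models. Single marker genes were named after their values were seen. Alternatives changed the pseudocount (0.1), the filter (none, or a mean of 5 FPKM), the normalization (quantile, or equal medians), the libraries fitted (those compared, or all but 1), the model (replicate block, array weights, or no variance trend) and the gene value (most abundant transcript).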

Additional observations from a re-analysis of the deposited data

Results flagged for a closer look

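The hypoxia response of Map3k10, a deleted gene, differed between the genotypes by an interaction term: DKO minus WT was 1.02 on the log2 scale (limma adjusted p = 0.00375). It averaged 1.17 ± 0.157 FPKM in DKO hypoxia and 0.148 ± 0.0193 FPKM in DKO normoxia, and 17.5 ± 1.43 FPKM in WT hypoxia and 18.8 ± 0.450 FPKM in WT normoxia (SD, n = 3). The call held in 21 of 22 alternatives. The exception was the most abundant transcript alone, where the difference was 0.18 and did not pass (limma adjusted p = 0.344). With that transcript the hypoxia difference of Map3k10 in DKO cells was 0.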

How the results depend on the processing

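The calls of Dll4, Hes1, Lfng and Hey1 named in the report held under every alternative in which they were tested, as did the fall of Notch1 and the rise of Rbpj in DKO cells and the higher Notch4 of DKO in hypoxia. With a mean of at least 5 FPKM, 4 members were called for hypoxia in DKO, 2 for hypoxia in WT and 1 for DKO against WT in hypoxia, since fewer members were tested. With array weights 1 member was called for DKO against WT in normoxia (Notch4) and 1 for the difference of responses (Hey1), and the cause was not tested. With 1 library left out, 5 to 7 members were called for hypoxia in DKO, 4 to 5 for hypoxia in WT, 3 to 4 for DKO against WT in hypoxia, 0 to 1 in normoxia and 0 to 1 for the difference.

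Over all genes, 4468 were called for hypoxia in DKO (3692 to 4112 with 1 library left out), 2370 for hypoxia in WT (1382 to 2351, the lowest without library 1 of WT hypoxia and 1495 without library 2) and 1832 for DKO against WT in hypoxia (1175 to 1425, the lowest without library 2 of WT hypoxia and 1185 without library 1 of DKO hypoxia). For DKO against WT in normoxia the count was 929, 616 with its own libraries alone and 583 to 806 with 1 left out (617 without library 2 of DKO normoxia and 583 without library 2 of WT normoxia). For the difference of responses it was 22, with 12 under quantile normalization, 6 with no variance trend, 153 with array weights and 1 to 39 with 1 library left out (39 without library 1 of WT hypoxia, 1 to 4 without 9 of the other libraries).

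Replicate numbers did not pair the libraries: the correlations of same-numbered deviations ran from -0.084 to 0.052, and not every library correlated best with its own number. With a replicate block 7, 5, 3, 0 and 0 members were called in the 5 comparisons, as without it, and 1 gene in place of 22 for the difference of responses.

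The differences that changed sign, on the log2 scale, had not been called, apart from that of Map3k10 for hypoxia in DKO, which was 0 for its most abundant transcript. They reached 0.0023 (quantile normalization), 0.0107 (equal library medians) and 0.0053 (array weights) for Notch4 with hypoxia in WT. For DKO against WT in hypoxia, quantile normalization gave 0.0246 for Dll4 and 0.0195 for Jag2, and the most abundant transcript gave -0.0578 for Rbpj. For DKO against WT in normoxia, array weights gave 0.0030 for Jag1, 0.0454 for Rbpj and 0.0259 for Bnip3. The difference of responses was -0.0049 for Mib1 with its most abundant transcript.

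With 1 library left out, differences that crossed 0 ran as follows. DKO against WT in normoxia ran from -0.0711 to 0.0509 for Notch1, from -0.0775 to 0.0073 for Jag1, from -0.104 to 0.0291 for Rbpj and from -0.0853 to 0.0121 for Bnip3. DKO against WT in hypoxia ran from -0.116 to 0.0593 for Dll4 and from -0.119 to 0.0408 for Jag2. Hypoxia in WT ran from -0.0456 to 0.0224 for Notch4, from -0.0673 to 0.0182 for Jag1 and from -0.0500 to 0.0129 for Poglut1. The difference of responses ran from -0.0569 to 0.0170 for Snw1 and from -0.103 to 0.0049 for Bnip3.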
